A study of Mus musculus with 30 samples.

Results

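The aryl hydrocarbon receptor (AHR), its DNA-binding partner and 6 of its target genes were followed through the small intestinal epithelium of mice given an AHR ligand. The 8 genes were chosen by name: Cyp1a1, Cyp1a2, Cyp1b1, Ahr, Arnt, Ahrr, Tiparp and Nqo1, each matched to 1 row of a count table of 54146 genes. The treated mice had received 10 µg of indolo[3,2-b]carbazole (ICZ) by gavage in corn oil, and the vehicle mice the oil without it. All were wild-type (WT in the labels) female C57BL/6 mice (C57B6/J in the treatment protocol) of 8 to 10 weeks that had eaten AIN93G, a semi-purified diet free of AHR agonists, for 1 week. After 12 h the epithelium of each animal was released by EDTA in 5 steps, here called F1 to F5 in order of release, and each step gave a 3′ end RNA sequencing library. ICZ mice gave 14 libraries and vehicle mice 15, from 3 mice each, and no F1 library of ICZ mouse 3 was analysed here. Mice are numbered 1 to 3 within a treatment by the replicate number in the labels. With 1 ligand at 1 dose and 1 time, the comparison reads only the state reached at 12 h in the cells that EDTA released.

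AHR is a ligand-activated transcription factor of the bHLH-PAS family. It rests in the cytosol with HSP90 and the co-chaperone p23, moves to the nucleus when a ligand binds, pairs with ARNT and binds DNA at a short core sequence, GCGTG. Its best known targets encode cytochromes P450 of the CYP1 family, which oxidise many AHR ligands, indolocarbazoles among them, and so remove the signal. Further targets restrain the receptor: AHRR competes with AHR for ARNT and DNA, and TIPARP is a mono-ADP-ribosyltransferase that lowers the receptor's activity. In the gut, AHR is known for sensing ligands from the diet and from bacteria.

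Reads counted on genes ranged over the 29 libraries between 4359673 and 7819837, and the median was 6351137. One library stood apart: the top 10 genes held 54.3% of these reads in F5 of ICZ mouse 1, where the median library had 26.8%. Each of the 10 markers of absorptive enterocytes was detected, and their summed level fell along the fractions, with group means of 35900 CPM (reads scaled to library size by TMM) in F1 and 13100 in F5 of ICZ mice, against 30900 and 15200 in vehicle mice. The 6 stromal markers together reached 128 CPM in F5 of ICZ mouse 3, against at most 15.5 CPM in F5 of the vehicle mice. Over F2 to F5 these markers stood at 11.3, 15.3 and 43.8 CPM in ICZ mice 1, 2 and 3. In bulk RNA of this kind, fewer cells of a type and less RNA per cell cannot be told apart.

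The 2 genes that separated the mice most, Cyp1a1 and Cyp1a2, are neighbours that point away from each other. In GRCm38 with the GENCODE M21 annotation Cyp1a1 (ENSMUSG00000032315.6) occupies chr9:57687928-57703824, plus strand. Cyp1a2 (ENSMUSG00000032310.4) occupies chr9:57676937-57683703, minus strand, and their RefSeq start sites lie 13958 bases apart. RefSeq promoters, from 250 bases before to 50 after the start site in GRCm38.p6, were at hand for 7 of the 8 genes, with Ahr as the exception. Those of the 3 genes that were higher with ICZ in every mouse and that of Ahrr, which holds the most core sequences, are given so that presence of the core can be set beside the response. Capitals mark GCGTG on the printed strand, each promoter reads 5′ to 3′ on its gene's strand, and the positions are counted from the start site.
Cyp1a1 (chr9:57697363-57697662, plus strand): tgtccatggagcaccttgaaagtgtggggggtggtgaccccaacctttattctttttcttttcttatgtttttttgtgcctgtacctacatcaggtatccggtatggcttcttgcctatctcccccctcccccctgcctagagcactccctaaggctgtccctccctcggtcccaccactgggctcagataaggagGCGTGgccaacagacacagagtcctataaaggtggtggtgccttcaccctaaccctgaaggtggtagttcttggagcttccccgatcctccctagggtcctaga
Cyp1a2 (chr9:57683606-57683905, minus strand): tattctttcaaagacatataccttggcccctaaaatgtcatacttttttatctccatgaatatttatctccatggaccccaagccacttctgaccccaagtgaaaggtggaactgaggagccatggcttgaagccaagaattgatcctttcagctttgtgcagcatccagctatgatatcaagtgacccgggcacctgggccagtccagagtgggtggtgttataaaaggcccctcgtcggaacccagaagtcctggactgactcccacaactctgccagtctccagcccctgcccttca
Nqo1 (chr8:107403156-107403455, minus strand): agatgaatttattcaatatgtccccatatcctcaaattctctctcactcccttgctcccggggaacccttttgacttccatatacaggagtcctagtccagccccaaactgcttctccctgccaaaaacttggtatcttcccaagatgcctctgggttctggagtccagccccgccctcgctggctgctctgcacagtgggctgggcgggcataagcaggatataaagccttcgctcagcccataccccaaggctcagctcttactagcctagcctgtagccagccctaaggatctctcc
Ahrr (chr13:74292282-74292581, minus strand): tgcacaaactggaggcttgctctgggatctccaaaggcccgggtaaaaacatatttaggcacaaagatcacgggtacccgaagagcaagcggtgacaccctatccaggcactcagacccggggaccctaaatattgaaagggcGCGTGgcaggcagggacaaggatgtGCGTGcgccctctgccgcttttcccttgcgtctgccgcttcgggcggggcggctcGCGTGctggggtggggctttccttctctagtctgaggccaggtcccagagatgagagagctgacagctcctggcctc

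The core stood once in the Cyp1a1 window, at -54, and nowhere in those of Cyp1a2 and Nqo1. Ahrr had 3 cores, at -107, -82 and -27, and the last of them also matched the longer form TNGCGTG. Single cores stood at -29 in Arnt and, on the opposite strand, at -76 in Cyp1b1 and -170 in Tiparp. Both strands were searched, and 32.4% of 32851 RefSeq promoters of this length held GCGTG and 5.07% held TNGCGTG, a motif that contains GCGTG. A match is a description of these letters only, and the windows do not reach distant enhancers.

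Cyp1a1, which encodes the main inducible AHR target enzyme of the gut, was read in all 14 ICZ libraries and was close to absent from the vehicle libraries. ICZ mouse 1 had 465, 520, 596, 331 and 255 Cyp1a1 reads in F1 to F5. ICZ mouse 2 had 380, 178, 178, 229 and 138 reads in the same fractions. ICZ mouse 3 had 106, 119, 65 and 53 reads in F2 to F5. The 15 vehicle libraries held 4 Cyp1a1 reads together, 1 each in F2, F3 and F4 of vehicle mouse 1 and 1 in F4 of vehicle mouse 2. No ICZ library overlapped any vehicle library, a separation in this direction that 10.7%, 9.72%, 8.53%, 3.95% and 3.2% of tested genes had in F1 to F5. The order of the ICZ mice was the same in every fraction, with mouse 1 highest and mouse 3 lowest. As CPM, mouse 1 stood at 102, 92.7, 87.0, 49.2 and 73.0 in F1 to F5, mouse 2 at 59.4, 27.4, 33.1, 36.4 and 17.3, and mouse 3 at 14, 15.6, 13.4 and 8.36 in F2 to F5.

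Cyp1a2, known mainly as a liver enzyme, gave fewer reads, and none of them in vehicle mice. ICZ mouse 1 had 7, 9, 8, 12 and 11 Cyp1a2 reads in F1 to F5, mouse 2 had 26, 33, 22, 16 and 19, and mouse 3 had 36, 28, 10 and 8 in F2 to F5. All 15 vehicle libraries had 0. The order of the mice was not that of Cyp1a1: mouse 1, highest for Cyp1a1 throughout, was lowest for Cyp1a2 in F1 to F4, with 1.53, 1.61, 1.17 and 1.78 CPM. Mouse 2 had 4.06, 5.09, 4.09 and 2.54 CPM there, and mouse 3 had 4.75, 3.68 and 2.07 CPM in F2 to F4. In F5 mouse 1 was highest, at 3.15 CPM against 2.38 in mouse 2 and 1.26 in mouse 3, in the library that stood apart. The 4 hepatocyte markers Alb, Ttr, Serpina1a and Cyp2e1 together reached 8.53, 12.3 and 16.7 CPM in ICZ mice 1, 2 and 3 over F2 to F5 and 6.19 to 12.3 CPM in vehicle mice, in which Cyp1a2 was at 0.

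**Figure D1:**
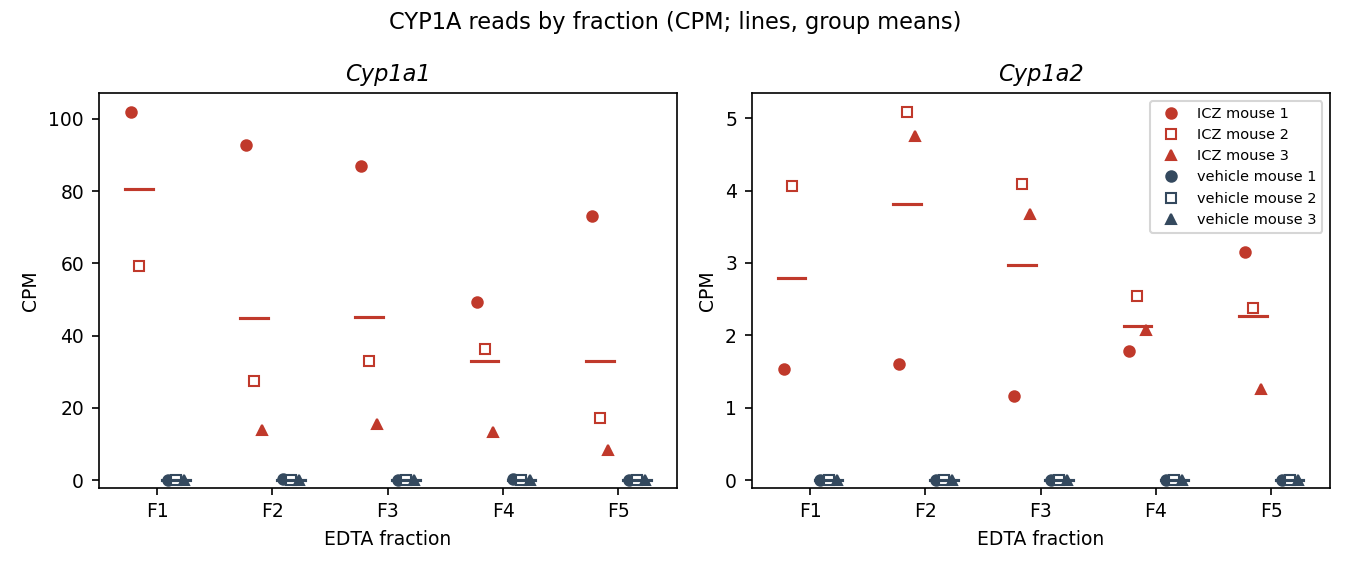
Cyp1a1 (left) and Cyp1a2 (right) in CPM by EDTA fraction, with ICZ mice in red to the left of vehicle mice in dark blue, 1 symbol per library and a line at each group mean. Cyp1a1 is highest in ICZ mouse 1 in each fraction, up to 102 CPM, while Cyp1a2 is lowest in that mouse in F1 to F4, and vehicle libraries lie at or near 0.

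The number of Cyp1a1 reads per Cyp1a2 read therefore differed widely between the ICZ mice. Over F2 to F5 there were 42.6 Cyp1a1 reads per Cyp1a2 read in mouse 1 (95% counting interval 31.1 to 59.8), 8.03 in mouse 2 (6.45 to 10.1) and 4.18 in mouse 3 (3.28 to 5.39). The 3 intervals did not overlap. In mouse 1 the ratio was 66.4, 57.8, 74.5, 27.6 and 23.2 in F1 to F5, in mouse 2 it was 14.6, 5.39, 8.09, 14.3 and 7.26, and in mouse 3 it was 2.94, 4.25, 6.50 and 6.62 in F2 to F5. Every library of mouse 1 lay above every library of the other two mice, whose ranges overlapped, although intervals of single libraries overlapped between mouse 1 and mouse 2 in F4 and between mouse 1 and mouse 3 in F5. Each ratio is taken within 1 library and so does not depend on its depth or scaling; it compares mice, and not the number of transcripts of the 2 genes. These intervals cover counting error only, and with 3 mice of 1 treatment there is no group comparison to test. The paralogues could share reads of low mapping quality, whose part was not tested.

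**Figure D2:**
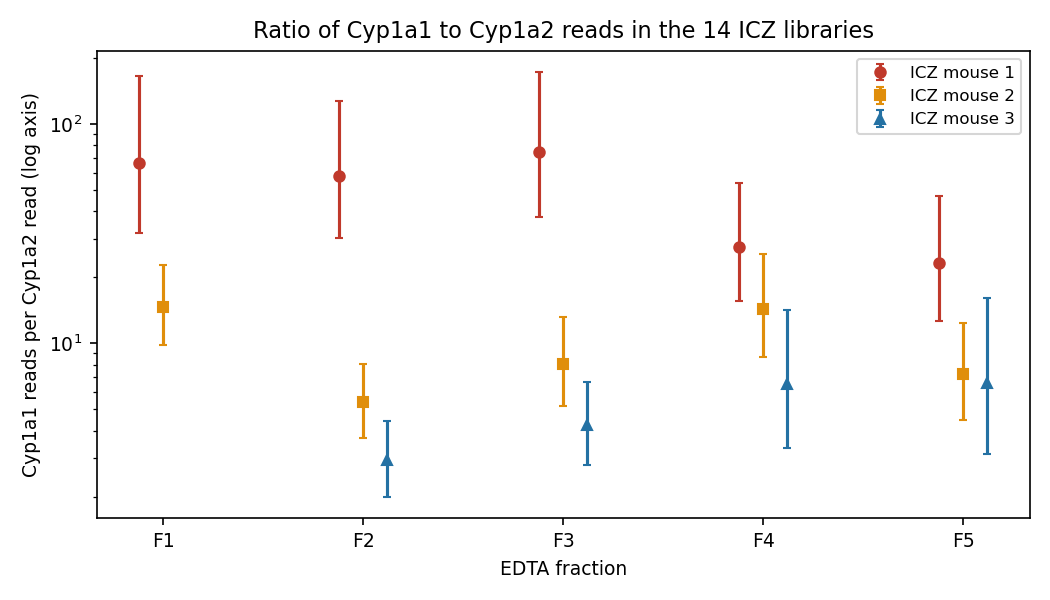
Cyp1a1 reads per Cyp1a2 read in the 14 ICZ libraries by EDTA fraction, on a log axis, with exact 95% counting intervals as bars and 1 colour per mouse. ICZ mouse 1 lies between 23.2 and 74.5, above mouse 2 (5.39 to 14.6) and mouse 3 (2.94 to 6.62).

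Set against vehicle on the reads of F2 to F5 added per mouse, Cyp1a1 stood at 76.0, 28.2 and 13.4 CPM in ICZ mice 1, 2 and 3, against 0.130, 0.0333 and 0 CPM in vehicle mice 1, 2 and 3. The ratio of pooled CPM was 746 (95% counting interval 291 to 2740), 413 without ICZ mouse 1 and 2110, on 1 vehicle read, without vehicle mouse 1. Cyp1a2 stood at 1.79, 3.51 and 3.20 CPM in the ICZ mice and 0 in the vehicle mice, which is at least 76.1-fold higher when the vehicle group as a whole is given 3 reads, and at least 47.3-fold without vehicle mouse 2. The summed enterocyte markers had the same order in the ICZ mice as Cyp1a1, at 23000, 18400 and 16200 CPM, but a far narrower range, and vehicle mice lay at 26100, 19300 and 15200 CPM; the part of cell makeup in the order of the mice was not tested. T cell markers were ordered alike, at 236, 161 and 136 CPM in ICZ mice 1, 2 and 3 and 242, 215 and 332 CPM in vehicle mice 1, 2 and 3. In the ICZ mice Paneth cell markers ran the opposite way, at 3130, 6520 and 9300 CPM, against 3500, 5220 and 6980 CPM in vehicle mice. So did stem cell markers, at 279, 559 and 682 CPM, against 308, 525 and 515 CPM in vehicle mice. Stromal markers also ran the opposite way, at 11.3, 15.3 and 43.8 CPM, against 9.39, 8.77 and 11.7 CPM in vehicle mice. The part of these markers was not tested either.

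In edgeR's quasi-likelihood test without a block, 0 of the 8 members passed an adjusted p of 0.05 in these sums, and 0% of 15497 tested genes did. The filter on low counts kept 7 of the members, all but Cyp1b1. Of these, 3 had an unadjusted p under 0.05, beside 886 of all 15497 tested genes: Cyp1a1 (adjusted p = 0.825), Cyp1a2 (0.0535) and Nqo1 (0.846). With the replicate number as a block, which the counts but not the labels gave as a pairing, the same 3 genes rose, with adjusted p = 2.01e-13, 2.45e-05 and 0.00945, while 0.749% of all tested genes were called higher. With all 29 libraries and the mouse as a random effect, limma with voom weights also called these 3, with adjusted p = 0.0439, 2.94e-06 and 0.0412, against 0.135% of 14067 genes called higher. That fit applied the same correlation between libraries of a mouse to all genes. Its p-values are too small for a gene whose mice differ more than this, and the ICZ mice kept their order for Cyp1a1 in every fraction. DESeq2 called 14 genes in all, and 2 members were among them, Cyp1a1 and Cyp1a2. In a two-sided exact permutation test of CPM over 3 and 3 mice each of the 3 genes reached p = 0.1, the smallest that this design allows. All ICZ values of these 3 genes lay above all vehicle values, as did those of 5.66% of tested genes.

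Cyp1b1, the third CYP1 enzyme (ENSMUSG00000024087.3 in the table, chr17:79701537-79715061, minus strand), which in many tissues is also an AHR target, was not read in any ICZ library. The vehicle libraries held 5 Cyp1b1 reads, 1 each in F1, F2 and F3 and 2 in F5. At 0 reads over F2 to F5, the ICZ mice allowed a Cyp1b1 level of up to 0.0407 CPM by a floor of 3 reads over the group, against 0.0476 ± 0.0415 CPM in vehicle mice (SD, n = 3). Such reads are too few at this depth to detect a difference (exact permutation p = 0.4).

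Nqo1 encodes a quinone reductase and is a target of AHR and of the oxidative stress factor NRF2 (ENSMUSG00000003849.8, chr8:107388225-107403206, minus strand). It was higher in ICZ mice in F1 to F4, by 1.48 to 1.83 times in pooled CPM. Over F2 to F5 it stood at 19.7, 20.4 and 17.3 CPM in the ICZ mice, against 14.3, 14.3 and 10.3 CPM in the vehicle mice, a log2 fold change of 0.56 ± 0.15 (SE). In F1 the ICZ mice had 15.3 and 15.6 CPM, against 12.6, 9.22 and 9.29 CPM in the vehicle mice. In F2 they had 19.98, 17.6 and 18.9 CPM, against 10.2, 11.6 and 8.91 CPM. The ICZ libraries thus lay above the vehicle libraries in F1 and F2, and also in F3 (24.5, 20.2 and 16.8 CPM, against 15.3, 13.8 and 11.9 CPM) and F4 (16.5, 20.7 and 18.4 CPM, against 13.9, 15.2 and 7.73 CPM). In F5 the groups overlapped, at 14.3, 21.3 and 13.1 CPM in ICZ mice and 16.2, 15.4 and 11.8 CPM in vehicle mice. The log2 fold changes were 0.58 ± 0.23, 0.85 ± 0.18, 0.57 ± 0.18, 0.60 ± 0.24 and 0.19 ± 0.25 (SE) in F1 to F5. None passed without a block (edgeR, adjusted p = 0.995, 0.106, 0.424, 0.999 and 1), and with the replicate block that of F2 did (0.0270). Of all tested genes 10.7%, 9.72%, 8.53% and 3.95% were likewise higher with ICZ without overlap in F1, F2, F3 and F4. In F2 the summed T cell markers lay at 117 to 236 CPM in ICZ mice, against 312 to 724 CPM in vehicle mice, and Paneth cell markers at 2610 to 7760 CPM, against 2570 to 3470 CPM; their part in the Nqo1 value was not tested. The change of the Nqo1 effect along the fractions was -0.10 ± 0.06 per fraction and did not pass (edgeR, adjusted p = 0.934).

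The receptor gene Ahr (ENSMUSG00000019256.17, chr12:35497974-35535038, minus strand) differed little between the treatments in the summed reads. Over F2 to F5 it had 8.98, 9.24 and 9.26 CPM in ICZ mice, against 7.14, 8.33 and 9.57 CPM in vehicle mice, a log2 fold change of 0.13 ± 0.14 (SE; edgeR, adjusted p = 0.918). The ICZ values fell within the vehicle range. By fraction the picture was uneven: in F1 the 2 ICZ mice had 12.3 and 13.3 CPM, against 6.91, 5.56 and 9.59 CPM in vehicle mice, and in F4 the ICZ mice had 8.77, 9.86 and 12.0 CPM, against 6.66, 7.78 and 8.47 CPM. These were the fractions in which Ahr did not overlap between groups, with ratios of pooled CPM of 1.74 (1.37 to 2.21) and 1.30 (1.04 to 1.62), while those of F2, F3 and F5 lay between 1.02 and 1.03. Neither passed over all genes, the adjusted p in F1 being 0.995 without and 0.211 with the replicate block. In F1, 10.7% of tested genes were higher with ICZ without overlap, and in F4 3.95%. Summed goblet cell markers were also higher without overlap in F1, at 17300 to 18000 CPM in ICZ mice, against 11200 to 15500 CPM in vehicle mice. So were enteroendocrine markers in F1, at 695 to 788 CPM, against 562 to 632 CPM. In F4 stromal markers separated likewise, at 10.3 to 21.3 CPM, against 9.36 to 9.91 CPM. Tuft cell markers did so there too, at 20.5 to 24.5 CPM, against 16.8 to 20 CPM. The part of all these markers in the Ahr values was not tested. A noncoding gene on the opposite strand, Gm48236, overlaps the 5′ end of Ahr.

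Arnt, the partner that AHR shares with the hypoxia factors (ENSMUSG00000015522.18, chr3:95434388-95497240, plus strand), had 16.5, 16.2 and 14.1 CPM over F2 to F5 in ICZ mice, against 19.5, 16.0 and 13.3 CPM in vehicle mice. The ICZ mice lay inside the vehicle range, and the log2 fold change of -0.06 ± 0.15 (SE; edgeR, adjusted p = 0.972) turned positive without ICZ mouse 3 or vehicle mouse 1. Its lowest log2 fold change in a single fraction was that of F2, where the ICZ mice had 14.8, 18.0 and 12.9 CPM, against 23.6, 20.1 and 16.9 CPM in vehicle mice, a log2 fold change of -0.43 ± 0.19 (SE; adjusted p = 0.395). A processed pseudogene, Gm42672, lies within Arnt on the same strand.

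Of the 2 feedback genes, Ahrr (ENSMUSG00000021575.16, chr13:74211118-74292331, minus strand) was barely read. It had 12, 11 and 3 reads over F2 to F5 in ICZ mice 1, 2 and 3, against 10, 16 and 21 reads in vehicle mice 1, 2 and 3. The ratio of pooled CPM was 0.596 (95% counting interval 0.354 to 0.982), but the mice overlapped and the log2 fold change of -0.72 ± 0.53 (SE) did not pass (edgeR, adjusted p = 0.893; exact permutation p = 0.3). Without ICZ mouse 3 the ratio was 0.808. In F2 the ICZ libraries had 0 Ahrr reads in all 3 mice, against 15 reads in the vehicle libraries, and 7.13% of tested genes were likewise lower there without overlap. Ahrr had too few reads for the test in F2, so that share describes genes with more reads. In F4 and F5 the ICZ libraries had 9 and 10 reads, against 8 and 9. A floor of 3 reads over the 3 vehicle mice equals 0.0378 CPM in these sums, and 0.0407 CPM over the ICZ mice.

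Tiparp (ENSMUSG00000034640.9, chr3:65528410-65555518, plus strand) is overlapped at its 5′ end by a processed pseudogene on the opposite strand, 4931440P22Rik. Tiparp was read at 46.2 to 74.8 CPM in the ICZ libraries and 49.9 to 94.6 CPM in the vehicle libraries. Over F2 to F5 it had 68.1, 58.4 and 53.4 CPM in ICZ mice, against 64.7, 77.3 and 61.2 CPM in vehicle mice, and the groups overlapped. The log2 fold change was -0.18 ± 0.12 (SE; edgeR, adjusted p = 0.893), and over all alternatives it lay between -0.28 and -0.08. In F5 the ICZ mice had 57.5, 50.5 and 52.7 CPM, against 72.7, 84.6 and 58.2 CPM in vehicle mice. That was the fraction in which Tiparp did not overlap, lower with ICZ, as were 4.88% of tested genes there, and its log2 fold change of -0.40 ± 0.19 (SE) did not pass (adjusted p = 1). In F5 stromal markers were also raised in ICZ mice, at 26.9, 27.8 and 128 CPM in order of size. The highest was that of ICZ mouse 3, and vehicle mice had 11.0 to 15.5 CPM. In F4, where Tiparp overlapped, stromal markers were higher without overlap too, at 10.3 to 21.3 CPM in ICZ mice, against 9.36 to 9.91 CPM in vehicle mice. The part of the stromal markers in the Tiparp value was not tested.

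**Figure D3:**
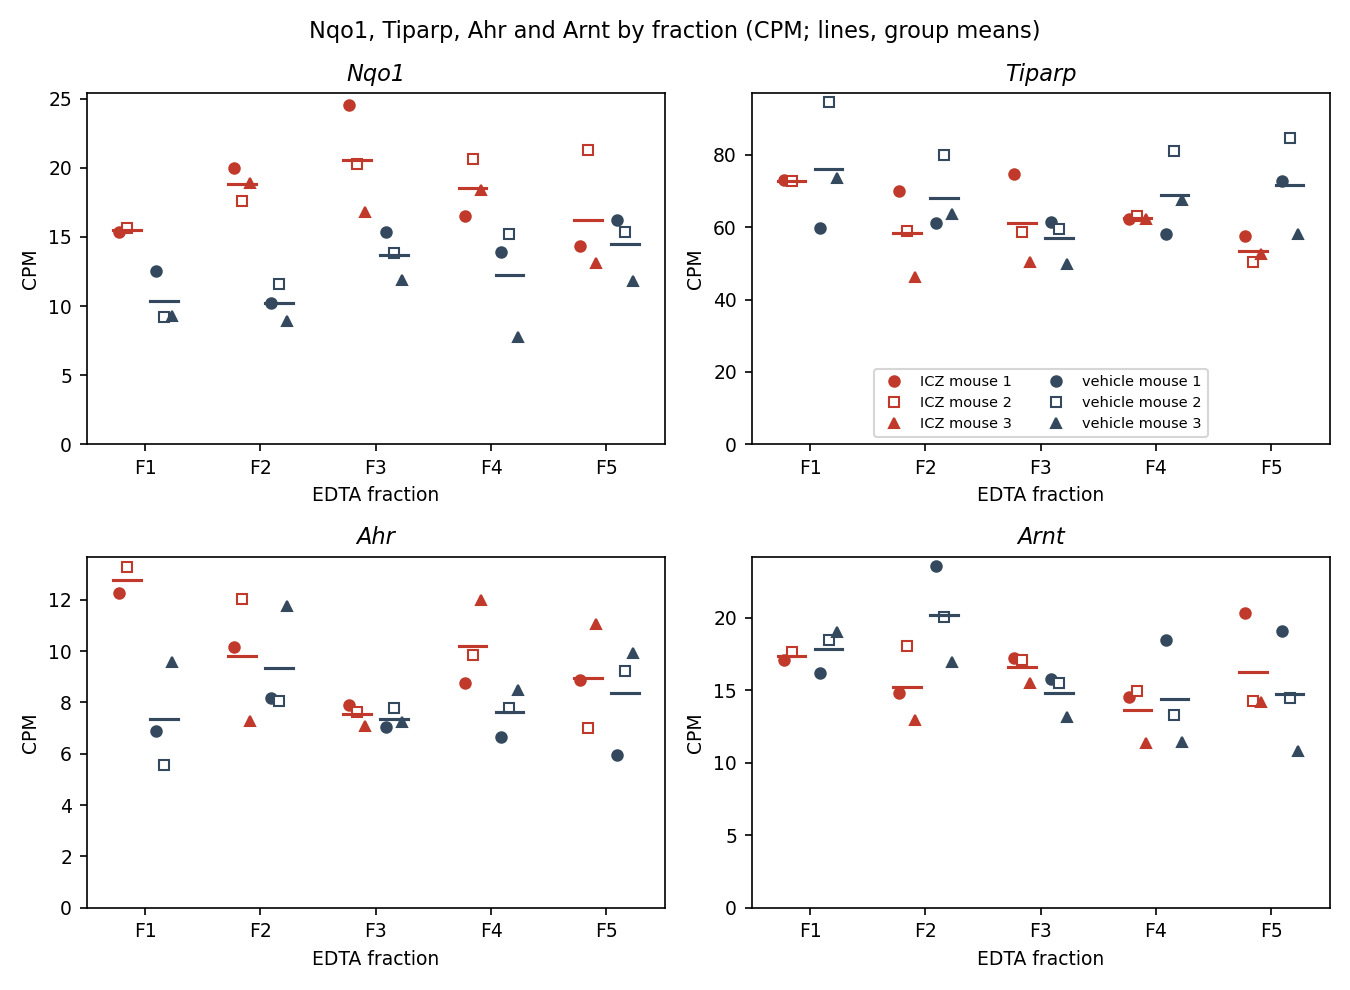
Nqo1, Tiparp, Ahr and Arnt in CPM by EDTA fraction, with ICZ mice in red to the left of vehicle mice in dark blue, 1 symbol per library and a line at each group mean. Nqo1 is higher in ICZ libraries without overlap in F1 to F4, Ahr in F1 and F4, Tiparp is lower in F5, and Arnt overlaps in each fraction; of all tested genes 10.7%, 9.72%, 8.53% and 3.95% are higher without overlap in F1 to F4, and 4.88% are lower in F5.

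Fraction by fraction, the number of members that edgeR called without a block was 1 in F1, where Cyp1a1 rose (adjusted p = 0.00486), and 0 in F2, F3, F4 and F5. Over all tested genes the calls made up 0.0324% in F1, 0.0165% in F2, 0.00815% in F3, 0% in F4 and 0% in F5. At an unadjusted p under 0.05 there were 4, 2, 3 and 1 members in F2 to F5. Over all tested genes, 1455 of 12115, 1122 of 12268, 349 of 12092 and 342 of 12244 were under it there. DESeq2 called 2, 1, 2 and 1 members in F2 to F5, among 97, 11, 4 and 3 genes called in all. With the replicate number as a block, 1, 3, 1, 2 and 1 members rose in F1 to F5, where 0.34%, 0.768%, 0.163%, 0.0248% and 0.0408% of tested genes were called higher. Cyp1a1 was among them in each fraction, Cyp1a2 in F2 (adjusted p = 0.00145) and F4 (0.0160), and Nqo1 in F2 (0.0270). Cyp1a2 was too low for the test in F1, F3 and F5, where the filter on low counts kept 5 of the 8 members, and 6 were kept in F2 and F4. Its bounds, against 3 reads over the vehicle libraries of a fraction, were at least 20.4-fold, 26.0-fold, 20.6-fold, 14.2-fold and 14.3-fold higher with ICZ in F1 to F5.

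The levels of the members were also followed along the fractions within each treatment, with the mouse as a block. Cyp1a1 fell along the fractions of the ICZ mice, by 0.24 ± 0.06 per fraction on the log2 scale (SE; edgeR, adjusted p = 0.00698), and it was the 1 member of the 6 tested that was called, beside 30.9% of 12869 genes. Its slope of -0.19 ± 0.06 without ICZ mouse 2 (adjusted p = 0.0631) and of -0.18 without F1 (0.133) no longer passed, nor did it without the block (-0.30, adjusted p = 0.275), where 30.2% of genes were called. The slope of Cyp1a2 was -0.19 ± 0.11 (adjusted p = 0.212), and -0.30 (0.0223) without the F5 library of ICZ mouse 1. Without the whole of ICZ mouse 1 it was -0.37 (0.0172), without ICZ mouse 2 -0.12 (0.696) and without ICZ mouse 3 -0.06 (0.760). Ahr, Arnt, Tiparp and Nqo1 had slopes of -0.08 ± 0.07, -0.02 ± 0.04, -0.05 ± 0.03 and 0.00 ± 0.05 per fraction in these mice and were not called.

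In the vehicle mice 2 of 4 tested members were called, beside 35% of 13164 genes. Nqo1 rose by 0.12 ± 0.04 per fraction (adjusted p = 0.0419) and Arnt fell by 0.11 ± 0.04 per fraction (0.0444), while Ahr (0.01 ± 0.05) and Tiparp (-0.01 ± 0.03) were not called. Both calls were marginal: without F1, F5, vehicle mouse 2 or vehicle mouse 3 neither passed, without vehicle mouse 1 Nqo1 did not, and without the block, where 32.3% of genes were called, adjusted p was 0.0773 for Nqo1 and 0.0860 for Arnt. The test of the ICZ effect's own slope called 0 members in all 29 libraries, against 0.0147% of 13611 genes, and no member had an unadjusted p under 0.05. For Cyp1a1 it gave -0.41 ± 0.52 per fraction (adjusted p = 0.978) and 0.01 without F1, and with 4 reads in all vehicle libraries a change of the Cyp1a1 effect along the fractions could not be resolved. Enterocyte markers fell along the same fractions in both treatments, and the part of cell makeup in the Cyp1a1 slope was not tested.

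None of the genes that serve the receptor passed the test over F2 to F5. Of the 4 genes of the AHR chaperone complex that were tested 0 passed with or without the block, with a median log2 fold change of 0.06 against 0.01 over all genes tested. Hsp90ab1, the main cytosolic HSP90, had 1880 ± 322 CPM in ICZ mice and 1820 ± 405 CPM in vehicle mice (SD, n = 3 each). Hsp90aa1, its inducible form, had 179 ± 25.3 and 195 ± 37.1 CPM in ICZ and vehicle mice, Ptges3, which encodes p23, had 67.7 ± 4.08 and 64.1 ± 8.20 CPM, and the kinase gene Src had 29.7 ± 3.67 and 27.9 ± 5.10 CPM. Of 10 bHLH-PAS relatives and coregulators 10 were tested and 0 passed, with a median of 0.04; Ncoa1, a coactivator, had 0.12 ± 0.11, Hif1a, which competes for ARNT, 0.15 ± 0.17, the corepressor gene Nrip1 -0.11 ± 0.13 and the coactivator gene Ncoa2 0.06 ± 0.10 (log2 fold change ± SE).

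Of 18 other genes reported to respond to AHR, 13 were tested over F2 to F5 and 0 passed, 6 of them with a positive log2 fold change and with a median of 0.00 against 0.01 over all genes. Ereg, an EGF receptor ligand, had 1.65, 1.36 and 1.60 CPM in ICZ mice, against 2.60, 2.77 and 2.33 CPM in vehicle mice. The groups did not overlap, as was the case, lower with ICZ, for 5.85% of all tested genes, and the log2 fold change of -0.74 ± 0.21 (SE) had an adjusted p of 0.846. The glutathione transferase gene Gsta2 was likewise lower without overlap, at 0.506 ± 0.101 CPM in ICZ mice and 0.881 ± 0.229 CPM in vehicle mice (SD, n = 3 each), and shares sequence with Gsta1, at 44.9 ± 7.16 and 44.4 ± 6.06 CPM. The amino acid transporter gene Slc7a5 had a log2 fold change of 0.28 ± 0.24 (SE) and Socs2 of 0.15 ± 0.16. The glucuronosyltransferase gene Ugt1a1 was too low for the test, with 16 reads in ICZ mice and 9 in vehicle mice, and it shares its 3′ exons with other Ugt1a genes, so its count is uncertain. It lay higher without overlap, at 0.179, 0.195 and 0.273 CPM in ICZ mice, against 0.0865, 0.1 and 0.152 CPM in vehicle mice, beside 5.66% of tested genes. Serpinb2, with 6 reads in ICZ mice and 14 in vehicle mice, was lower without overlap and also untested. Aldh3a1, an aldehyde dehydrogenase of the classic AHR battery, had 0 reads in every library. Within F1 and with the replicate block, 1 gene of this list rose, the tryptophan-degrading enzyme gene Ido1 (log2 fold change 1.12 ± 0.19, SE; edgeR, adjusted p = 0.0142), where 0.34% of tested genes were called higher; without the block its adjusted p was 0.0782 and it was not called.

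Because Nqo1 has NRF2 as a second regulator, 12 other NRF2 targets were set beside it. Of these 9 were tested and 0 passed with or without the block, 3 with a positive log2 fold change. Their median was -0.15, against 0.01 over all genes tested. The part of NRF2 in the Nqo1 value was not tested, nor was that of cell makeup in this median. Gclc, the catalytic subunit of glutathione synthesis, was the one tested gene of these that did not overlap, at 37.8, 38.0 and 40.5 CPM in ICZ mice, against 32.2, 34.9 and 30.0 CPM in vehicle mice. Of all tested genes 5.66% were likewise higher with ICZ without overlap. The log2 fold change of Gclc was 0.26 ± 0.09 (SE, edgeR, adjusted p = 0.846). The malic enzyme gene Me1 had -0.28 ± 0.18, the thioredoxin reductase gene Txnrd1 -0.23 ± 0.15 and the sulfiredoxin gene Srxn1 -0.19 ± 0.13 (log2 fold change ± SE), none called. Gstp1 had 0 counted reads, and whether reads of it were left out for low alignment quality was not tested. Hmox1 had 21 reads in ICZ mice and 20 in vehicle mice.

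**Figure D4:**
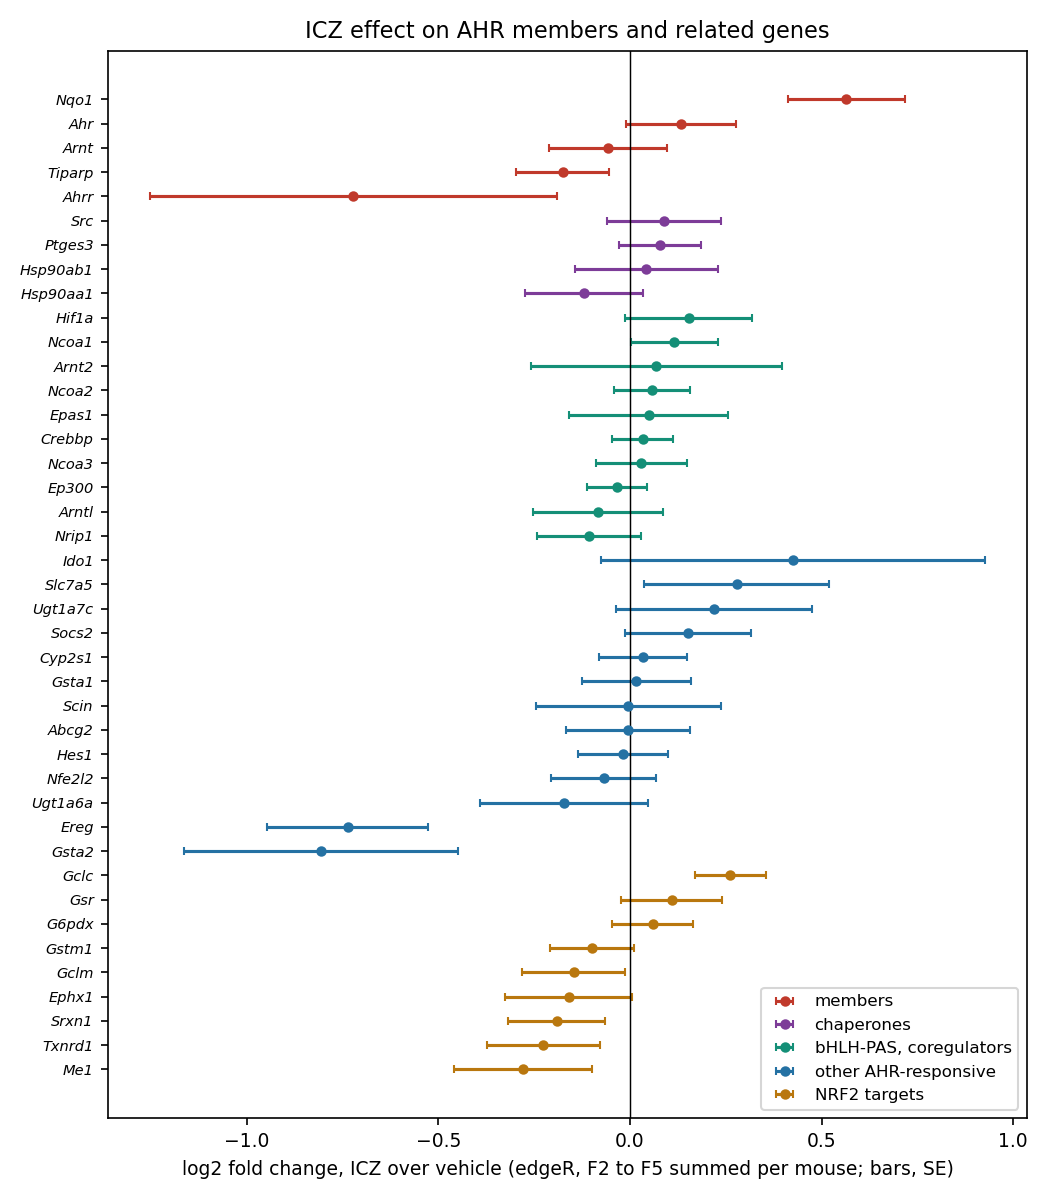
Log2 fold change of ICZ over vehicle (edgeR, F2 to F5 summed per mouse, bars are SE) for 5 members and the tested genes of 4 lists; Cyp1a1 and Cyp1a2 lie off this scale. Nqo1 stands at 0.56 ± 0.15, while none of the points shown passed an adjusted p of 0.05 without a block.

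Ranked by the Pearson correlation of log2 CPM over the 29 libraries, with genes of at least 5 CPM on average, the gene most like Cyp1a2 was Cyp1a1 (r = 0.925), before Acta1 (0.822) and Agr2 (0.798). For Cyp1a1 it was the actin gene Acta1 (0.906), before Dnajc19 (0.769) and Agr2 (0.763). Those values rest on the gap between treatments, since vehicle libraries hold almost no reads of either member. Over the 14 ICZ libraries alone Cyp1a1 was most like Txnrd1 (0.961), Yme1l1 (0.959) and Sept7 (0.951), libraries that share 3 mice and their order. Tiparp was most like Amotl2 (0.828), Ihh (0.823) and Socs3 (0.788), Arnt like Arsg (0.821), Cep350 (0.802) and Itch (0.800), and Nqo1 like Psmb2 (0.784), Gtf2a2 (0.765) and Tmem267 (0.765). Ahr had the weakest likeness, with Per2 (0.630), Slc20a1 (0.568) and Rlf (0.554). These are descriptions over libraries of 6 mice that share animals and depth.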

How the data were processed

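The authors deposited 1 table of raw read counts per gene (whole-number counts, not normalized) for 30 libraries of a QuantSeq 3′ mRNA-Seq kit. FastQC 0.11.2, BWA 0.7.17-r1188, SAMtools 1.10 and HTSeq 0.11.2 and the build GRCm38.p6 (mm10) are named, per the submitters' processing notes. The annotation release, the strand setting and whether molecular identifiers served are likewise not stated by these sources, so reads of overlapping antisense genes cannot be told apart and counting intervals cover counting error only. Summary lines stayed out of library sizes: over the assigned libraries 9.15% to 14.7% of reads had no feature, 3.61% to 5.1% were ambiguous, 18% to 26.5% had low alignment quality and 2.63% to 7.31% were unaligned. The 29 libraries with a labelled treatment and fraction were used; their fractions come from 6 mice, and the series describes biological triplicates.

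The members, lists and tests were chosen with earlier results of these data known. All 8 members are named, and of each list up to 4 genes of smallest p in the summed comparison or any that passed it; genes named beyond that (Gsta1, Aldh3a1, Gstp1, Hmox1, Ido1, Ugt1a1, Serpinb2) were added after their values were seen. Tests were fitted across all genes in R 4.3.3 with edgeR 4.0.16 (filterByExpr, TMM, robust quasi-likelihood F test, Benjamini-Hochberg adjustment, threshold 0.05), on reads of F2 to F5 added per mouse, within each fraction, and as slopes over fraction number with the mouse as a block. Alternatives used DESeq2 1.42.0, limma 3.58.1 with voom, other scaling, no filter, left-out mice or fractions and the replicate number as a block. CPM used TMM library sizes, and SE was derived by dividing the size of the log2 fold change by the root of F. Likeness used log2 CPM with a prior count of 2. Ratios have exact 95% intervals, and a group at 0 was given a floor of 3 reads over the group. Pairing was checked on deviations of the summed values from group means: same-numbered ICZ and vehicle mice correlated at 0.381, 0.247 and 0.472, other pairs at -0.424 to -0.0248. The labels do not state such a pairing, and it comes from the same counts. The animal numbers in the titles are the same in both treatments for replicates 2 and 3 and differ for replicate 1. The procedure was tested on simulated data. 1 listed gene is not reported here. Promoters came from RefSeq on GRCm38.p6 and coordinates from GENCODE M21.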

Additional observations from a re-analysis of the deposited data

Results flagged for a closer look

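The library titled Undetermined, with its treatment given as Unknown and no fraction, entered no comparison. Whether it is a sample of its own or holds reads of several libraries cannot be told from its label. It held reads of both CYP1A genes above the level of the vehicle libraries. Of its 7484796 gene reads 126 were Cyp1a1 reads, or 16.8 CPM by plain totals, against at least 8.71 CPM in each ICZ library and at most 0.18 CPM in any vehicle library. Cyp1a2 had 12 reads, or 1.6 CPM, against at least 1.17 CPM in each ICZ library and 0 in every vehicle library. The library held 10.5 Cyp1a1 reads per Cyp1a2 read (95% counting interval 5.80 to 20.9), within the range of the labelled ICZ libraries. Its other members were Ahr at 8.68, Arnt at 16.6, Ahrr at 0.534, Tiparp at 64.7, Nqo1 at 13.9 and Cyp1b1 at 0 CPM. It also counted 5860420 reads that did not align.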

How the results depend on the processing

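With the replicate number as a block the members called numbered 3 in the sums of F2 to F5, 1 in F1, 3 in F2, 1 in F3, 2 in F4 and 1 in F5, against 0, 1, 0, 0, 0 and 0 without it. DESeq2 called 2, 1, 2, 1, 2 and 1 in the same order, and no filter on low counts gave 1, 2, 2, 1, 2 and 1. Leaving out 1 mouse at a time gave 1 in F1, between 0 and 2 in the sums, F2 or F3, and between 0 and 1 in F4 or F5. Limma with voom weights on all libraries called 3. Summing F2 to F4, chosen after seeing the data because of the F5 library of ICZ mouse 1, called 0 without and 3 with the block. For slopes in vehicle mice the 2 members called became 0 without the replicate block, 1 with DESeq2, 1 with RLE scaling, 0 without the filter, 0 without F1, 0 without F5 and 0 to 1 without a mouse. For slopes in ICZ mice the 1 member became 0 without the replicate block, 0 without F1, 2 without the F5 library of ICZ mouse 1 (added after seeing the data) and 0 to 2 without a mouse. The slope of the ICZ effect called 0 members in every alternative run. The causes of these differences were not tested.

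Over all genes the sums gave 0 calls, against 231 with the block, 14 by DESeq2, 36 without the filter, 31 by voom and 0 to 3 without a mouse. Within fractions the counts are given in the order without a block, with it, DESeq2, no filter and the range without a mouse. F1 had 4, 45, 18, 57 and 1 to 22. F2 had 2, 221, 97, 351 and 0 to 267. F3 had 1, 23, 11, 221 and 0 to 498. F4 had 0, 5, 4, 26 and 0 to 1. F5 had 0, 8, 3, 37 and 0 to 1. The slope of the ICZ effect had 2 calls, 0 without the block, 321 by DESeq2, 81 without the filter, 18 without F1, 0 without F5 and 0 to 16 without a mouse. Slopes in vehicle mice had 4610 calls, 1776 without F1 and 1817 to 4396 without a mouse, and slopes in ICZ mice 3973 and 1431 to 3449.

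Of 414 values of single members under an alternative, 337 kept direction and side of the threshold, 41 newly passed it, 18 no longer did and 18 changed sign. Within fractions this tally holds Cyp1a1, Cyp1a2 and Nqo1 where tested, Ahr in F1 and F4, Arnt in F2 and Tiparp in F5. Values of Ahr, Arnt and Tiparp in other fractions were left out, so the tally and the sign changes below do not cover them. Where signs changed on leaving out 1 mouse, the ranges were -0.182 to 0.0879 for Arnt in the sums (positive without ICZ mouse 3 or vehicle mouse 1), -0.0318 to 0.342 for Nqo1 in F5 and -0.175 to 0.00803 for the slope of the ICZ effect on Ahr. Slopes in vehicle mice ranged over -0.0615 to 0.0356 for Ahr and -0.0526 to 0.00872 for Tiparp, and slopes in ICZ mice over -0.167 to 0.0179 for Ahr, -0.0629 to 0.0364 for Arnt and -0.0754 to 0.0444 for Nqo1. Without F1 the slope of the ICZ effect became 0.0139 for Cyp1a1 and 0.0558 for Ahr, the vehicle slopes -0.0467 for Ahr and 0.0438 for Tiparp, and the ICZ slopes 0.00834 for Ahr and -0.0674 for Nqo1. Without F5 the slope of the ICZ effect became 0.0346 for Tiparp and the vehicle slope -0.0135 for Ahr, and without the replicate block the ICZ slope of Nqo1 was -0.00135. None of these sign changes concerned a called value. Depth limits Cyp1b1 and Ahrr most: their reads were too few for a test within any fraction.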

Other observations

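Of the 4 tested genes of the AHR chaperone complex, 2 rose and 1 fell along the fractions in ICZ mice, and the counts were the same in vehicle mice, beside 30.9% and 35% of all tested genes called. Hsp90aa1 rose by 0.30 ± 0.03 per fraction in ICZ mice and 0.37 ± 0.03 in vehicle mice (log2, SE; edgeR with the mouse as a block, adjusted p = 5.70e-06 and 6.49e-07). Hsp90ab1 rose by 0.27 ± 0.04 in ICZ mice and 0.27 ± 0.04 in vehicle mice (adjusted p = 7.09e-05 and 9.35e-05), and Src fell by 0.17 ± 0.04 and by 0.21 ± 0.04 per fraction in ICZ and vehicle mice (0.00497 and 0.000915). Ptges3 was not called, at 0.08 ± 0.04 in ICZ mice and 0.08 ± 0.04 in vehicle mice. The slope of Ahr was -0.08 ± 0.07 in ICZ mice and 0.01 ± 0.05 in vehicle mice, and neither was called. Among bHLH-PAS genes Hif1a, the hypoxia factor that also pairs with ARNT, fell by 0.19 ± 0.04 per fraction in ICZ mice and by 0.13 ± 0.03 in vehicle mice (adjusted p = 0.00125 and 0.00127). The differences between these slopes of different genes were not tested.

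The NRF2 targets did not share 1 direction along the fractions. In ICZ mice Srxn1 fell by 0.28 ± 0.02 and Gclm by 0.26 ± 0.02 per fraction, while Gsr rose by 0.15 ± 0.05 (adjusted p = 1.08e-06, 2.72e-06 and 0.0212). In vehicle mice Srxn1 fell by 0.22 ± 0.03 and Gclm by 0.21 ± 0.03, while Gsr rose by 0.17 ± 0.04 (adjusted p = 3.47e-05, 1.38e-05 and 0.00437), beside the 0.12 ± 0.04 of Nqo1 there. Of the 9 tested, 1 rose and 3 fell in ICZ mice, and 2 rose and 3 fell in vehicle mice, where 30.9% and 35% of all tested genes were called. These examples were chosen after their values were seen.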
